A study of Mus musculus with 96 samples.

Results

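Whether maternal immune activation (MIA) altered the transcriptional response of the prefrontal cortex to a CSF1R inhibitor was examined in 48 bulk RNA libraries from mouse offspring, of 96 libraries in the whole series; the other 48 are hippocampal. The quantity described here is the MIA by PLX interaction, the difference between MIA and saline offspring in the effect of the inhibitor, averaged over the sexes. In log2 units it is MIA PLX minus MIA CTRL, less saline PLX minus saline CTRL. A positive interaction means that the inhibitor difference was more positive in MIA offspring, and a negative one that it was more negative there. The members were all 48 prefrontal libraries, in 8 groups. MIA offspring given PLX5622 (MIA PLX) comprised 6 females and 6 males, and MIA offspring without it (MIA CTRL) 7 females and 5 males. Offspring of saline dams given PLX5622 (Sal PLX) comprised 6 females and 6 males, and saline offspring without it (Sal CTRL) 6 females and 6 males. Each of the 4 combinations of prenatal treatment and inhibitor therefore held 12 libraries. Strain, age, the agent of immune activation, the dose and timing of the inhibitor, the vehicle and the litter are not given in the labels used here. The p-values take libraries as independent, and animals that shared a litter would not be independent replicates of MIA.

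CSF1R is the receptor on microglia for the growth factors CSF1 and IL34, and microglia depend on its signal for survival. PLX5622 blocks the receptor's kinase; microglia are lost while it is given and repopulate the brain once it is withdrawn. The design text names this renewal of microglia as the purpose of the injections. MIA is a rodent model in which an immune challenge during pregnancy is followed by altered behaviour in the offspring. The interaction asks whether such offspring responded to the inhibitor differently from offspring of saline dams.

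The libraries held between 22.8 M and 25.9 M recovered reads. Cortical markers were present in every prefrontal library, and their summed normalized signal (read counts scaled by 1 factor per library) was 77640 to 92181, overlapping with 66511 to 81702 in the hippocampal libraries. Single markers differed: Tbr1, a transcription factor of deep-layer neurons, had a median of 3669 in prefrontal and 1142 in hippocampal libraries, and Fezf2, another, 632 and 804. In 16 prefrontal libraries the genes of ribosomal proteins and oxidative phosphorylation took a larger share of the signal, at 1.30 ± 0.0654% (SD, n = 16) against 0.953 ± 0.0419% in the other 32. These 16 were 1 of 12 MIA PLX, 6 of 12 MIA CTRL, 1 of 12 Sal PLX and 8 of 12 Sal CTRL libraries. The state of these libraries thus goes with the absence of the inhibitor, and inhibitor differences from a fit with a term for them are given below for the calls and values that it alters most. Among the 16, no library was a saline PLX female or an MIA PLX male, so the interaction could not be fitted within them.

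No gene passed the test for the interaction. Of 19841 genes tested, limma called 0 at an adjusted p under 0.05 (0%), and the lowest adjusted p was 0.887. An unadjusted p under 0.05 was reached by 988 genes, 4.98% of those tested, of which 457 (2.3%) had a positive and 531 (2.68%) a negative interaction. The lowest unadjusted p was 0.000398. Both edgeR and DESeq2 on the recovered reads also called 0. The interaction was measured with a 95% interval whose half-width had a median of 0.25 log2 over all genes and 0.19 over the 12858 genes with a mean signal of at least 100. For 1 gene in 10 of all those tested the half-width exceeded 0.65 log2. Fitted interactions ran from -1.60 to 1.27 with a median of -0.0058.

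**Figure D1:**
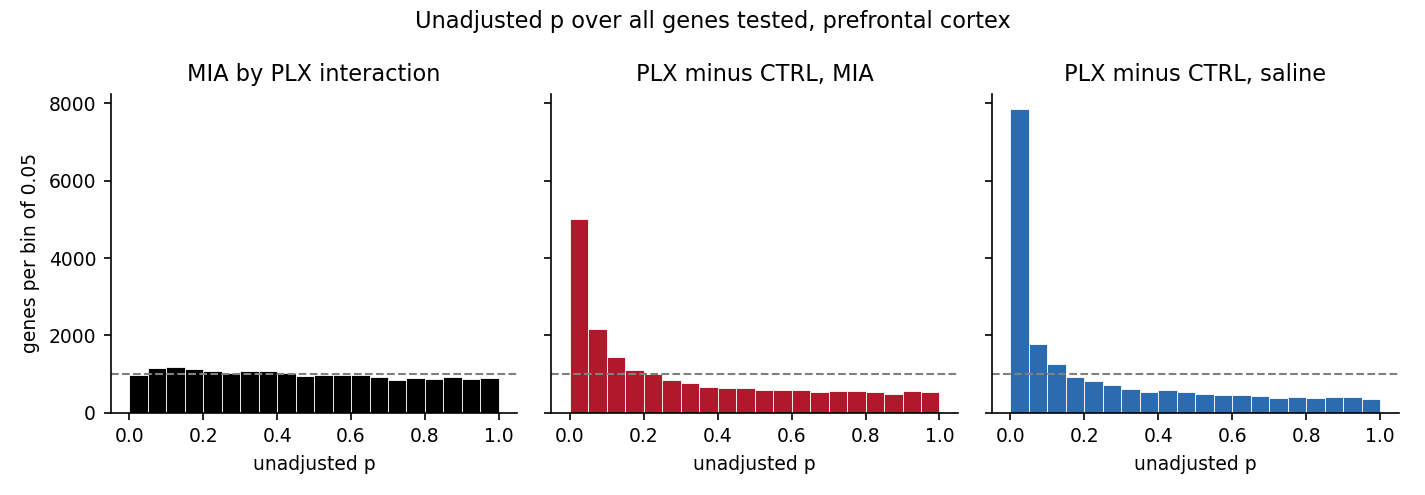
Number of genes (y axis) in each bin of 0.05 of the unadjusted p (x axis) for the MIA by PLX interaction, for PLX minus CTRL in MIA offspring and for PLX minus CTRL in saline offspring; the dashed line is the mean per bin. The interaction has 988 genes in its lowest bin, near the dashed line, against 5014 for the inhibitor in MIA offspring and 7861 in saline offspring.

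The inhibitor differences on which the interaction rests gave very unlike numbers of calls. In MIA offspring PLX minus CTRL called 61 genes, 0.307% of those tested, 30 higher (0.151%) and 31 lower (0.156%) in MIA PLX. In saline offspring it called 4829 genes, 24.3%, 2629 higher (13.3%) and 2200 lower (11.1%) in Sal PLX. At an unadjusted p under 0.05 the shares were 25.3% in MIA and 39.6% in saline offspring. Of the MIA calls, 40 were also saline calls, all 40 in the same direction; they were 65.6% of the MIA calls and 0.828% of the saline calls. A gene called in one stratum and not in the other is not thereby shown to differ between them, and the test of that difference called 0. With a term for the 16 libraries the counts were 20 in MIA and 11 in saline offspring. Those 16 held 5 of the 6 Sal CTRL males. A fit without them left only replicate 6 in that group, so its counts are not given. edgeR and DESeq2 were not run without those libraries. Across the 19841 genes the inhibitor difference in MIA offspring correlated with that in saline offspring at Pearson's r = 0.67. It was r = 0.25 with a term for 14 libraries that part on the first principal component. That split was taken from these same values after they were seen, so a lower r can follow from the term itself. The r with the term for the 16 libraries was not computed. The strata share no library, but in both of them the libraries that stand apart lie mostly in CTRL.

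Genes of microglia and genes that respond to the inhibitor were followed through both strata. The 20 genes were taken because earlier results of these data showed them to respond, so their shared sign in MIA and saline offspring (20 of 20, against 75.8% of all genes) is a description and supports nothing. Their interaction lay between -0.29 and 0.45 log2, its 95% interval held 0 for each of the 20, and the lowest unadjusted p was 0.162. In MIA offspring 12 of the 20 were called and in saline offspring 19; with the term for the 16 libraries the numbers were 9 and 10. With that term Fcrls, P2ry12, Crybb1, Upk1b, Myo18b, Hcar2, Ly9, Lyz2 and Cd52 were called in both strata and Cd163 in saline offspring, while the calls of Csf1r, Cx3cr1, Siglech, Gpr34, Itgax and Clec7a, among others, were lost. Since these are bulk samples, fewer microglia and less RNA per microglial cell cannot be told apart.

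Csf1r, the inhibitor's target, had a signal of 2084 to 2400 (median 2208) in MIA PLX and 2335 to 2719 (median 2521) in MIA CTRL libraries. It lay between 2041 and 2448 (median 2161) in Sal PLX and between 2166 and 3255 (median 2476) in Sal CTRL libraries. The groups overlapped in both strata, and each PLX median lay below the lowest CTRL library of its stratum. The inhibitor difference was -0.18 ± 0.05 log2 (SE; limma adjusted p = 0.0565) in MIA offspring and -0.22 ± 0.05 (adjusted p = 0.0128) in saline offspring. The interaction was 0.04 ± 0.06, with a 95% interval of -0.09 to 0.17.

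Of the surface receptors and transcripts of resting microglia, Fcrls, an Fc receptor-like scavenger receptor, had a median signal of 414 in MIA PLX, 658 in MIA CTRL, 402 in Sal PLX and 591 in Sal CTRL libraries. It fell by 0.57 log2 in MIA PLX (limma adjusted p = 2.98e-06) and by 0.56 in Sal PLX (adjusted p = 1.41e-06), with an interaction of -0.01 ± 0.10. P2ry12, the purinergic receptor that guides microglial processes, fell by 0.34 in MIA PLX and by 0.31 in Sal PLX, with an interaction of -0.04 ± 0.10. The sialic acid-binding receptor Siglech and the lysophospholipid receptor Gpr34 each had an interaction of 0.01, with intervals of -0.17 to 0.19 and of -0.22 to 0.23. The fractalkine receptor Cx3cr1 differed by -0.24 in MIA and -0.26 in saline offspring, where it was called in saline only, and its interaction was 0.01 ± 0.09. Tmem119, a microglial membrane protein, had the least alike pair of differences among these receptors, -0.10 in MIA and -0.22 in saline offspring, and an interaction of 0.12 ± 0.11. Its saline call was lost with the term, where the difference was -0.08.

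The strongest reductions were in genes whose levels were low. Upk1b, a uroplakin tetraspanin, had a signal of 3.14 to 22.7 in MIA PLX and 14.3 to 45.4 in MIA CTRL libraries, and of 3.86 to 19.0 in Sal PLX and 23.5 to 41.1 in Sal CTRL libraries. Its groups overlapped in MIA offspring and did not overlap in saline offspring, yet its interaction of 0.30 ± 0.28 did not pass the test (limma adjusted p = 0.905). The inhibitor differences were -1.38 in MIA and -1.68 in saline offspring, both called. Crybb1, a crystallin of immature and resting microglia, fell by 0.83 in MIA PLX and by 0.89 in Sal PLX, with an interaction of 0.06 ± 0.19. Myo18b, an unconventional myosin, fell by 0.50 and by 0.66 and had an interaction of 0.16 ± 0.12. Cd163, the haemoglobin scavenger receptor of perivascular and meningeal macrophages, differed by -0.40 in MIA and -0.67 in saline offspring, by -0.56 and -0.88 with the term, was called in saline offspring in both fits, and had an interaction of 0.27 ± 0.19.

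The genes that were higher with the inhibitor were so on both backgrounds. Hcar2, the receptor for hydroxybutyrate and niacin, had a signal of 1.05 to 16.7 (median 8.17) in MIA PLX and 0 to 2.98 (median 0) in MIA CTRL libraries. It lay between 3.12 and 21.3 (median 9.25) in Sal PLX and between 0 and 2.01 (median 0.927) in Sal CTRL libraries. On the log2(signal + 1) scale, which understates changes at such low levels, it rose by 2.43 ± 0.31 in MIA PLX and 2.72 ± 0.30 in Sal PLX, and its interaction of -0.29 ± 0.43 had a 95% interval of -1.16 to 0.57. Ly9, a SLAM-family receptor of immune cells, rose by 1.72 in MIA PLX and 1.27 in Sal PLX, and its interaction of 0.45 ± 0.33 was the highest of the 20. Lysozyme (Lyz2) rose by 0.59 and 0.54, the integrin Itgax by 1.12 and 1.09 and the beta-glucan receptor Clec7a by 1.04 and 0.91, in MIA and saline offspring in that order. Of the complement genes in this set, C1qa differed by 0.10 in MIA and 0.05 in saline offspring, by 0.25 and 0.26 with the term, and was called in neither fit; C3ar1, the receptor for a cleavage product of C3, differed by 0.16 and by 0.31, of which the saline difference was called.

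**Figure D2:**
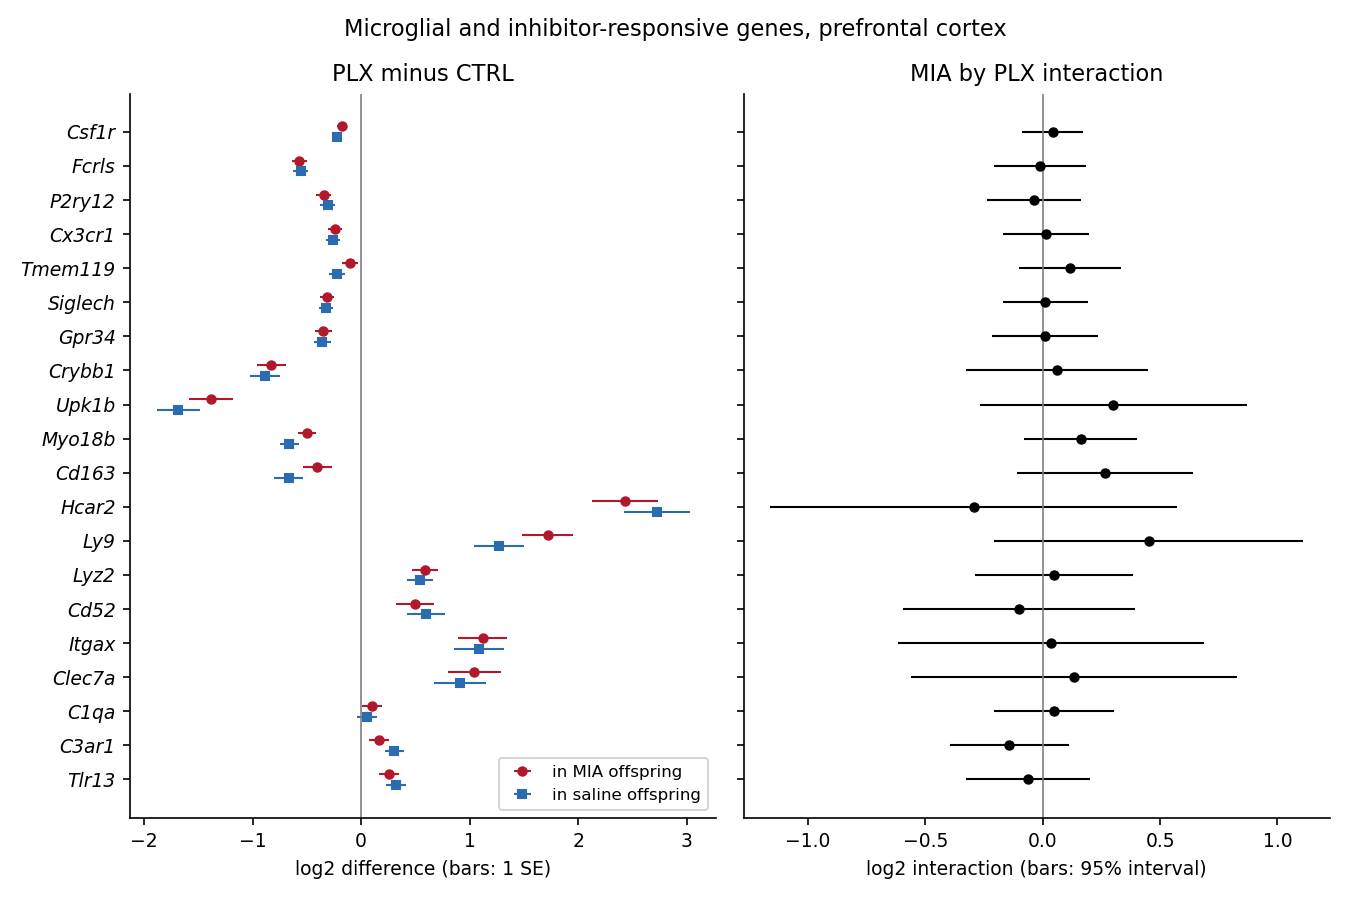
Left, PLX minus CTRL (log2 difference, x axis) of 20 genes (y axis) in MIA offspring (circles) and saline offspring (squares), with bars of 1 SE; right, the MIA by PLX interaction (log2, x axis) with its 95% interval. Each gene lies on the same side of 0 in MIA and saline offspring, from Hcar2 at 2.43 and 2.72 to Upk1b at -1.38 and -1.68, and each interval of the interaction includes 0.

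A longer set of inhibitor-responsive genes came from the hippocampus, whose libraries do not enter the prefrontal fit but carry the same animal labels. In the hippocampus 75 genes tested in both tissues were called for PLX minus CTRL in the fit with the term, 52 higher and 23 lower. In the prefrontal fit without the term, 73 of them had the hippocampal sign in MIA offspring and 69 in saline offspring. The share of all genes with the hippocampal sign was not counted. Of the 16 prefrontal libraries apart in share, 14 carried an animal label that was also apart in hippocampus. These sign counts are therefore a description and not a separate check. The 52 higher genes had a median prefrontal difference of 0.23 log2 in MIA and 0.24 in saline offspring, and the 23 lower genes -0.23 and -0.26. Their interaction had a median of 0.0085 for the higher and 0.013 for the lower genes, and 1 of the 75 had an unadjusted p under 0.05, with 0 called. In the prefrontal fit with the term, 73 had the hippocampal sign in MIA and 67 in saline offspring. The median differences were then 0.15 in MIA and 0.11 in saline offspring for the higher genes and -0.19 and -0.20 for the lower ones, the median interactions 0.04 and 0.0048, and 2 of the 75 had an unadjusted p under 0.05.

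The 20 annotated genes with the lowest unadjusted p for the interaction, 10 in each direction, had p-values between 0.000398 and 0.00332, all with a limma adjusted p of 0.887. They are described for their values and not as genes that responded differently. All 10 genes with a positive interaction were higher in MIA PLX than in MIA CTRL and lower in Sal PLX than in Sal CTRL. Of the 10 with a negative one, 9 were lower in MIA PLX and 9 were higher in Sal PLX than in the matching CTRL group. Such opposed signs follow in part from choosing by the interaction. Of the 20, 1 was called in the MIA inhibitor contrast and 11 in the saline one, where 0.307% and 24.3% of all genes were. With the term for the 16 libraries 1 was called in MIA and 0 in saline offspring (lowest adjusted p 0.484).

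Cox18, which inserts a subunit of cytochrome c oxidase into the inner mitochondrial membrane, had the lowest p among the positive interactions. Its signal was 232 to 339 (median 262) in MIA PLX and 219 to 288 (median 256) in MIA CTRL libraries, and 217 to 288 (median 238) in Sal PLX and 244 to 320 (median 280) in Sal CTRL libraries. The groups overlapped in both strata, and the larger gap lay between the saline groups. Its interaction was 0.28 ± 0.08 log2 (unadjusted p = 0.000743). Cyp2t4, a cytochrome P450, had a signal of 30.0 to 51.3 (median 41.6) in MIA PLX, 21.3 to 40.8 (median 32.6) in MIA CTRL, 25.3 to 47.3 (median 33.5) in Sal PLX and 26.3 to 46.3 (median 38.8) in Sal CTRL libraries. It had the widest positive interaction of these 20, 0.53 ± 0.15, made up of 0.38 in MIA and -0.15 in saline offspring. The metallopeptidase Amz1 had medians of 517 in MIA PLX, 480.0 in MIA CTRL, 469 in Sal PLX and 543 in Sal CTRL libraries, and an interaction of 0.30 ± 0.09.

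The other positive interactions were 0.37 for the tetraspanin Tspan4, 0.32 for Ccdc88b, 0.30 for the planar cell polarity receptor Ptk7 and 0.14 for Grk6, a kinase of G protein-coupled receptors. The DNA repair gene Fancg had 0.26, the kisspeptin receptor Kiss1r 0.37 and Ccdc74a 0.25. For Kiss1r the medians were 139 in MIA PLX, 117 in MIA CTRL, 122 in Sal PLX and 128 in Sal CTRL libraries. For Grk6 they were 1643 in MIA PLX, 1583 in MIA CTRL, 1587 in Sal PLX and 1765 in Sal CTRL libraries.

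Zfp983, a zinc finger gene, had the lowest p of the 20. Its signal was 241 to 382 (median 335) in MIA PLX and 262 to 416 (median 354) in MIA CTRL libraries, and 308 to 428 (median 383) in Sal PLX and 274 to 385 (median 323) in Sal CTRL libraries. The groups overlapped in both strata. Its interaction was -0.38 ± 0.10 (unadjusted p = 0.000398). Mad2l1, a protein of the mitotic spindle checkpoint, had a signal of 215 to 295 (median 239) in MIA PLX, 223 to 312 (median 277) in MIA CTRL, 234 to 289 (median 262) in Sal PLX and 209 to 270.4 (median 236) in Sal CTRL libraries. Its interaction was -0.28 ± 0.07 (unadjusted p = 0.000432), with -0.15 in MIA and 0.13 in saline offspring. Chp2, a calcineurin-like calcium-binding protein, had medians of 40.9 in MIA PLX, 51.1 in MIA CTRL, 47.4 in Sal PLX and 40.9 in Sal CTRL libraries. Its interaction of -0.65 ± 0.18 was the widest of the 20.

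Among the remaining negative interactions were the zinc transporters Slc39a8 (-0.39) and Slc39a12 (-0.17), the JNK phosphatase Dusp16 (-0.35), the kinase of cation-chloride cotransporters Stk39 (-0.15) and the RNA polymerase II elongation factor Ell2 (-0.17). The zinc finger genes Zfp493 and Zfp72 had -0.31 and -0.30. Slc39a8 was the gene of the 20 called in MIA offspring: it fell by 0.41 in MIA PLX (limma adjusted p = 0.0114), where the median was 74.6 against 97.3 in MIA CTRL libraries, and differed by -0.02 in saline offspring, with a median of 78.4 in Sal PLX and 84.1 in Sal CTRL libraries. The test of that difference is the interaction itself, which did not pass.

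**Figure D3:**
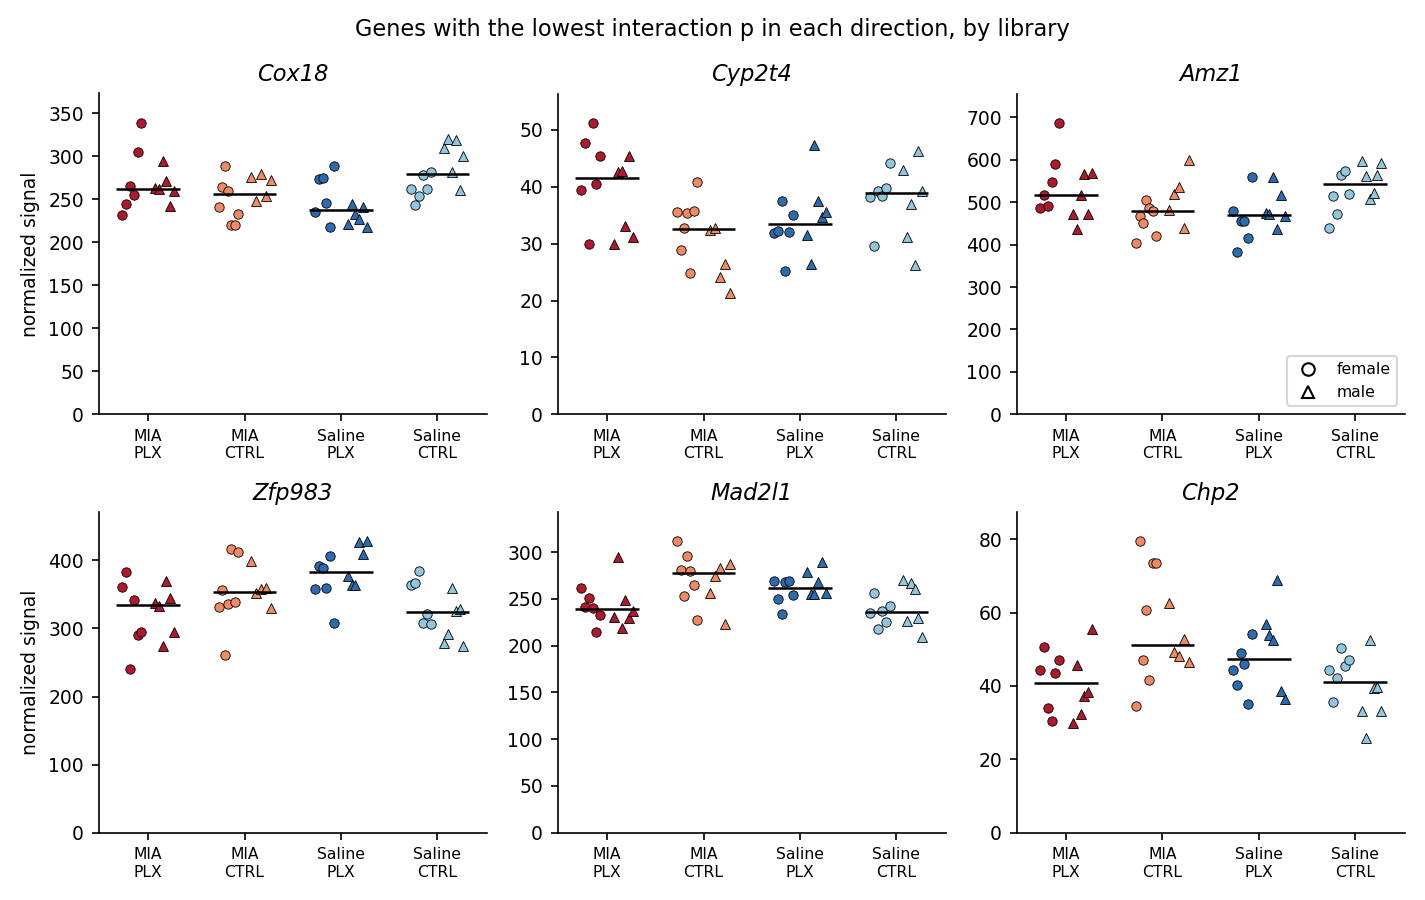
Normalized signal (y axis, from 0) of the 3 named genes with the lowest interaction p in each direction, for each library in the MIA PLX, MIA CTRL, saline PLX and saline CTRL groups (x axis); circles are females, triangles males, bars the median of 12 libraries. The libraries of the 4 groups overlap for each gene, with Chp2 medians of 40.9, 51.1, 47.4 and 40.9 from left to right.

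Taken sex by sex, limma called 0 genes for the interaction in females (612 at an unadjusted p under 0.05, 3.08%) and 0 in males (797, 4.02%). The difference of the interaction between females and males also called 0 (492, 2.48%; lowest adjusted p 0.986). Across the 19841 genes the female and the male interaction, which share no library, correlated at Pearson's r = 0.026 and Spearman's rho = 0.041. All 20 named genes had the same sign in females as in males, as an average over the sexes favours. Zfp493 was the least alike, with -0.54 ± 0.12 in females and -0.08 ± 0.13 in males.

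The genes with the lowest p in 1 sex were chosen on that sex, and their values in the other sex are given beside it. Chaf1a, a subunit of the chromatin assembly factor that deposits histones at replication, had an interaction of 0.70 ± 0.16 in males (unadjusted p = 0.000109) and -0.15 ± 0.16 in females. Its male medians were 118 in MIA PLX, 112 in MIA CTRL, 87.8 in Sal PLX and 134 in Sal CTRL libraries, and the saline male groups did not overlap, at 72.0 to 99.9 in Sal PLX and 109 to 166 in Sal CTRL. Oip5, a centromere protein, had 0.98 ± 0.27 in males and -0.08 ± 0.26 in females, and Ogdhl, a mitochondrial dehydrogenase subunit, 0.32 ± 0.09 and -0.02 ± 0.08. The DNA end-joining factor Nhej1 had -0.73 ± 0.20 in males and -0.16 ± 0.20 in females. In females Ckap2l, a spindle protein, had -1.18 ± 0.32, against 0.04 ± 0.33 in males; its female medians were 13.5 in MIA PLX, 25.6 in MIA CTRL, 22.1 in Sal PLX and 16.4 in Sal CTRL libraries. The exchange factor Arhgef19 and Rhobtb2 had 0.43 and 0.23 in females, and -0.04 and -0.03 in males; Mir6955 had -1.59 in females and -0.23 in males, at a signal of at most 12.9 in any library.

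The lowest p for the difference between females and males belonged to Tent5c, a poly(A) polymerase, whose interaction was 0.35 ± 0.14 in females and -0.45 ± 0.14 in males. Tbxas1, thromboxane synthase, had 0.48 in females and -0.35 in males, and the myeloid inhibitory receptor Cd300a 0.59 and -0.52. Spag6, a protein of motile cilia, had -0.39 in females and 0.44 in males, and Slc23a3 -1.21 and 0.93. Each had a limma adjusted p of 0.986 for the difference.

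Gene lists of cell types and processes held 821 tested genes in 33 lists, and 0 of them was called for the interaction. The median interaction was within 0.1 log2 of 0 in 29 lists. Homeostatic microglial genes had a median of 0.06, with 32 of 41 above 0 against 9578 of 19841 over all genes, and 0 of 41 at an unadjusted p under 0.05. Their summed signal had a median of 37965 in MIA PLX, 42121 in MIA CTRL, 37652 in Sal PLX and 42226 in Sal CTRL libraries. The ribosomal protein genes, with a median of 0.05, and the oxidative phosphorylation genes, with 0.04, had medians of -0.0048 and -0.014 with a term for the 16 libraries. Those libraries were parted on the share of these same genes, so medians nearer to 0 follow from the term and are no separate result. Female and male medians of the microglial list were 0.14 and -0.0059.

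In 5 lists the share of genes at an unadjusted p under 0.05 was at least 16.7%, against 4.98% of all genes. It was 31.8% of 22 circadian clock, 31.3% of 16 GABA-A receptor, 22.2% of 18 histone, 17.6% of 17 complement and 16.7% of 18 MHC genes, and no gene passed adjustment. Of the histone genes 13 were below 0 and 5 above, up to 0.51, and the median was 0.04 in females and -0.20 in males. At an unadjusted p under 0.05, 3 were negative and 1 was positive. The linker histone gene H1f4 had -0.68 ± 0.26 and H2bc21 -0.28 ± 0.11. Of 18 MHC genes 14 were above 0, and 3 had an unadjusted p under 0.05, each positive. H2-Aa, an MHC class II chain, had a signal of 43.5 to 78.6 (median 62.2) in MIA PLX, 13.2 to 61.1 (median 40.2) in MIA CTRL, 17 to 89.1 (median 50.6) in Sal PLX and 34.8 to 77.7 (median 49.1) in Sal CTRL libraries, and an interaction of 0.74 ± 0.27. Another class II gene, H2-Eb1, had 0.57 ± 0.19 and the invariant chain Cd74 0.46 ± 0.18. The hippocampal values of H2-Aa, H2-Eb1 and Cd74 were 0.27, 0.30 and 0.48. Cbr2 had the lowest p of the border macrophage list, with 0.62 ± 0.26. That list had a median of 0.15 over 15 genes, of which 8 were above 0, but of 0.0051 in females and 0.020 in males. Its summed signal was 842 to 1136 in MIA PLX, 767 to 1293 in MIA CTRL, 814 to 1314 in Sal PLX and 772 to 1221 in Sal CTRL libraries, and the part of these cells in the class II values was not tested. Of 17 complement genes 14 were above 0, with a median of 0.08, which was 0.19 in females and -0.0013 in males. C1s1, the mouse gene for the protease C1s, had 0.60 ± 0.24, the classical pathway component C2 0.39 and the decay-accelerating factor Cd55 -0.25 ± 0.09.

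Of 22 circadian clock genes, 5 had a positive and 2 a negative interaction at an unadjusted p under 0.05, and 18 were above 0 with a median of 0.08. Dbp, an output transcription factor of the clock, had 0.56 ± 0.19, with medians of 1355 in MIA PLX, 1125 in MIA CTRL, 1182 in Sal PLX and 1479 in Sal CTRL libraries. Ciart had 0.48, Bhlhe41 0.24, the repressor Nr1d1 0.23 and the Dbp relative Tef 0.16. Nfil3, a repressor that opposes Dbp at its sites, had -0.51 ± 0.20, and Arntl, which encodes BMAL1, had -0.23. The time of day of collection is not given in the labels used here, and its part was not tested.

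Immediate early genes, induced by neuronal activity within minutes, had a median of -0.14, with 23 of 30 below 0; the median was -0.28 in females and 0.08 in males. Fosl2 had -0.61 ± 0.21 and Fosb -0.61 ± 0.24. Fosb had medians of 684 in MIA PLX, 1045 in MIA CTRL, 617 in Sal PLX and 550 in Sal CTRL libraries, so that MIA CTRL was the highest group. The summed list showed the same order at its ends, with medians of 50049 in MIA PLX, 55464 in MIA CTRL, 46108 in Sal PLX and 40214 in Sal CTRL libraries, and all 4 groups overlapped. Cdkn1a, the cell cycle inhibitor p21, listed with glucocorticoid-responsive genes, had -0.64 ± 0.21, and the other 19 genes of its list held 0 at an unadjusted p under 0.05.

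Of synaptic genes, 14 of 16 genes of GABA-A receptors and their scaffold were below 0, with a median of -0.10, and 5 of them had an unadjusted p under 0.05. Gphn, which encodes the scaffold gephyrin, had -0.12 ± 0.05, and the alpha subunit gene Gabra5 had -0.21. The median shrank to -0.04 with a term for the 16 libraries. Glutamate receptor genes had a median of -0.08 that was -0.02 with the term, and 17 of 25 were below 0. At an unadjusted p under 0.05, 1 was negative and 1 positive, the latter Grik5, a kainate receptor subunit, with 0.21 ± 0.07. Astrocyte, oligodendrocyte precursor, brain endothelial and myelin lists had medians of 0.01, -0.02, -0.04 and 0.06. Of 25 astrocyte genes 15 were above 0, with a highest value of 0.33. The 2 with the lowest p were negative, the astrocytic water channel Aqp4 with -0.26 ± 0.12 and the glutamate transporter Slc1a3 with -0.14 ± 0.06.

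**Figure D4:**
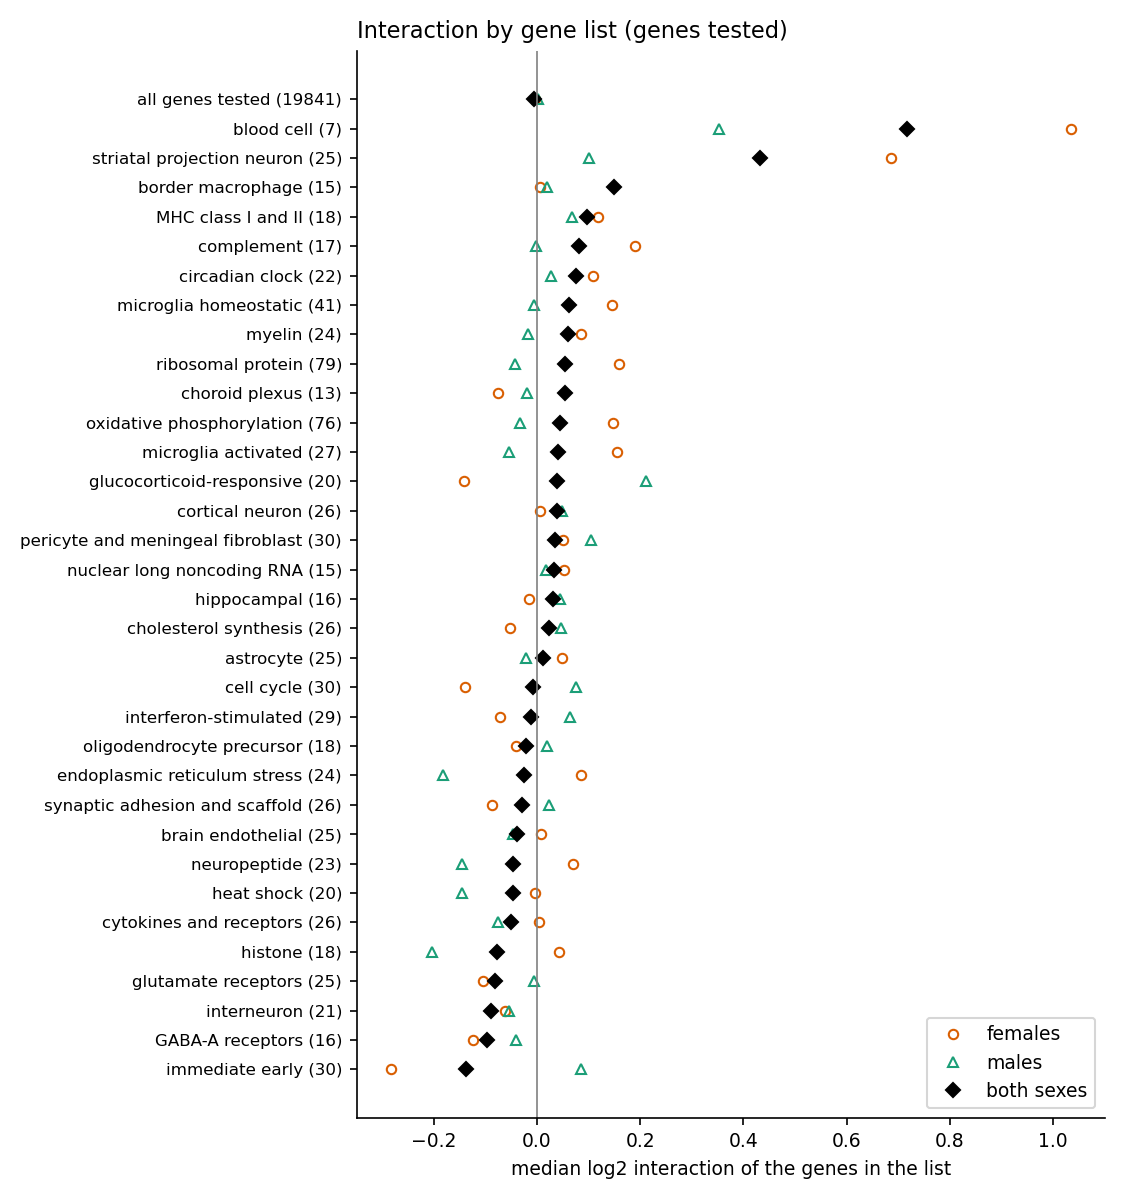
Median log2 interaction (x axis) of the genes in each list (y axis, number of genes tested in brackets) over both sexes (filled diamonds), in females (circles) and in males (triangles), ordered by the median over both sexes below all genes. The striatal and blood lists lie farthest from 0, at 0.43 and 0.72, and the immediate early list lowest, at -0.14.

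Markers of striatal projection neurons, from tissue next to the cortex, had positive fitted interactions, with 0 called. All 25 striatal projection neuron genes were above 0, with a median of 0.43 (0.69 in females and 0.10 in males), and 0 of 25 had an unadjusted p under 0.05. The median standard error of these 25 was 0.38 log2 against 0.12 over all genes. Rarb, a retinoic acid receptor, had 0.53 ± 0.29 (unadjusted p = 0.0766, the lowest of the list). The summed signal of the list was 21428 to 71930 (median 44260) in MIA PLX, 17844 to 66977 (median 37994) in MIA CTRL, 17625 to 42731 (median 31774) in Sal PLX and 18680 to 68612 (median 38415) in Sal CTRL libraries. The highest Sal PLX library was below the median of MIA PLX, and the MIA CTRL and Sal CTRL groups held libraries above that median. Over all 48 hippocampal libraries it was 15962 to 19791. The dopamine receptor gene Drd1 ran from 184 to 1708 over the prefrontal libraries and from 59.0 to 249.8 over the hippocampal ones. The part of striatal tissue in the interaction of other genes was not tested.

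**Figure D5:**
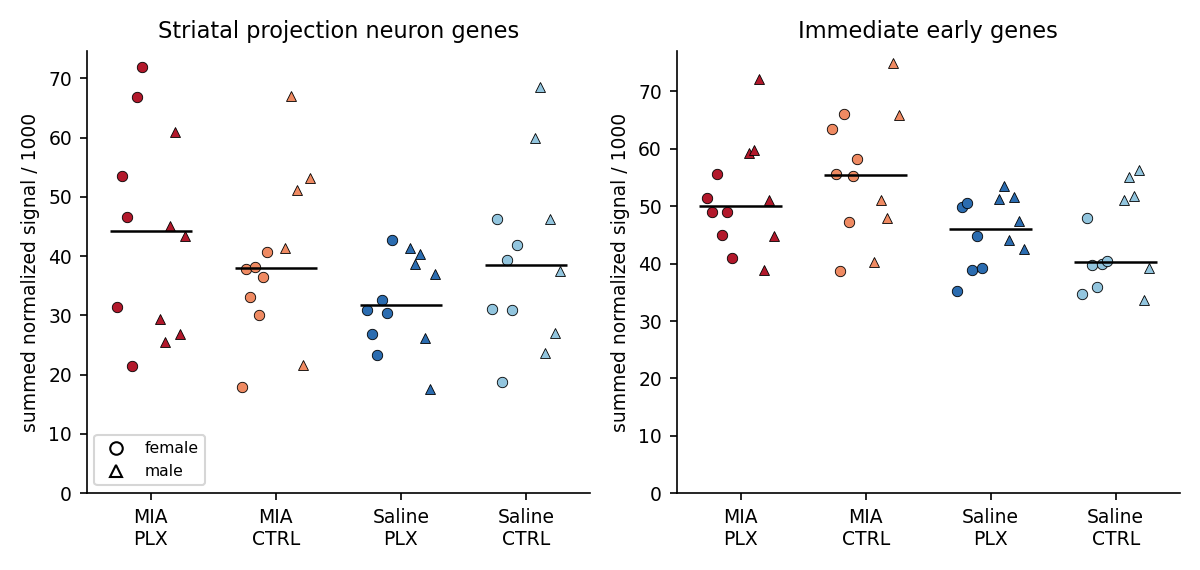
Summed normalized signal (y axis, from 0, in units of 1000) of 25 striatal projection neuron genes (left) and 30 immediate early genes (right) in each library of the MIA PLX, MIA CTRL, saline PLX and saline CTRL groups (x axis); circles are females, triangles males, bars the median of 12 libraries. Striatal sums spread widely except in saline PLX, and the immediate early median is highest in MIA CTRL.

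Blood cell genes had a median of 0.72 over 7 tested genes, with 0.87 ± 0.90 for the haemoglobin gene Hba-a1 and 0.87 ± 0.94 for Hbb-bs, and 0 of 7 at an unadjusted p under 0.05. Hbb-bs lay between 8.06 and 274 in MIA PLX, 9.11 and 426 in MIA CTRL, 3.04 and 981 in Sal PLX and 18.3 and 1247 in Sal CTRL libraries. Genes of the choroid plexus had a median of 0.05. Its transport protein Ttr was between 4.82 and 284 in prefrontal libraries, against 200 to 89354 in the hippocampal ones.

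In the hippocampus, fitted in the same way on its own 48 libraries, limma called 0 of 19938 genes for the interaction (407 at an unadjusted p under 0.05, 2.04%). Of the 20 named prefrontal genes 16 had the same sign there. The share of all genes with the same sign in both tissues was not counted, and the tissues carry the same animal labels. The 16 are therefore a description and not a separate check. Of the 20, 0 had an unadjusted limma p under 0.05 in hippocampus, and the lowest was 0.0831, for Cyp2t4 at 0.30 ± 0.17. Chp2, with -0.65 in prefrontal cortex, had 0.01 ± 0.25 in hippocampus. The difference between the tissues, tested in a joint fit, called 0 of 19366 genes (442 at an unadjusted p under 0.05, 2.28%). That fit took the libraries as independent, although both tissues carry the same animal labels. With the animal label as a block it also called 0, with 1329 genes at an unadjusted p under 0.05 and a lowest limma adjusted p of 0.15. The genes and standard errors that follow are from the fit without the block. The lowest p for that difference belonged to the apoptosis repressor Nol3, 0.50 ± 0.15 more positive in prefrontal cortex, and also on the positive side Fam185a (0.27) and the dimethylglycine dehydrogenase Dmgdh (0.93). On the negative side were the olfactory receptor gene Olfr287 (-0.59), Nhej1 (-0.64) and Cdkn2aip (-0.29).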

How the data were processed

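Total RNA was made into stranded mRNA libraries, per the labels' protocols. The submitters' processing notes name Trimmomatic, STAR 2.6.1d and GRCm39 (mm39); of the counting tool they say nothing. The deposited values are a signal: counts divided by 1 factor per library by the authors, in 22709 genes by symbol, without coordinates. Values multiplied by the recovered factor were whole in all columns (100% of values, tolerance 0.01), but in 10 prefrontal columns the factor was within 1% of 1, where whole numbers carry less information. Prefrontal factors ran from 0.931 to 1.107.

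All 8 prefrontal groups were fitted in 1 linear model of log2(signal + 1) with limma 3.58.1 in R 4.3.3, with variances moderated by a trend. Tests were two-sided and covered genes that reached a signal of 10 in 5 or more libraries, with Benjamini-Hochberg adjustment over all of them; called means an adjusted p under 0.05. The members, lists and named genes were chosen with earlier results of these data known. Named genes were the 10 lowest unadjusted p-values in each direction with an annotated symbol (3 in each sex and difference contrast), 20 inhibitor-responsive genes, and the 2 lowest of each list; further list members were added after their values were seen. A gene that this rule would name is not reported here. edgeR 4.0.16 and DESeq2 1.42.0 were run on the recovered reads as alternatives. The fits were tested on simulated data. No library was left out of the fits as designed, no columns were identical, and the highest correlation between libraries was 0.990.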

Additional observations from a re-analysis of the deposited data

Results flagged for a closer look

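In the 8 prefrontal groups of 40 named genes, 19 of 320 groups held a library whose gap to its nearest neighbour was large against the group's range (Dixon's test at 95%); chance flags about 1 in 20 groups. Values are normalized signals, with the nearest library of the same group after each.

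In MIA PLX females, replicate 6 was highest for Tspan4 (333, nearest 255) and Tmem119 (762, nearest 607) and lowest for Ell2 (682, nearest 772). Replicate 3 was lowest for Fancg (241, nearest 313) and highest for Slc39a8 (98.1, nearest 81.5), and replicate 5 was lowest for C3ar1 (59.8, nearest 66.9). In MIA CTRL females, replicate 3 was lowest for P2ry12 (729, nearest 1014) and replicate 1 for Upk1b (14.3, nearest 23.8). In MIA CTRL males, replicate 3 was lowest for Zfp72 (207, nearest 234) and replicate 4 highest for Upk1b (45.4, nearest 31.8).

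In Sal PLX females, replicate 2 was highest for Slc39a8 (109.8, nearest 83.3) and replicate 6 for C1qa (1132, nearest 978). In Sal PLX males, replicate 5 was lowest for Zfp72 (213, nearest 280.1) and P2ry12 (731, nearest 842), and replicate 3 for Stk39 (1845, nearest 2073). Replicate 2 was highest for Gpr34 (346, nearest 304) and replicate 4 for Ly9 (31.4, nearest 19.7). In Sal CTRL females, replicate 1 was highest for Zfp493 (124, nearest 104), and in Sal CTRL males replicate 6 for C3ar1 (71.5, nearest 47.9).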

How the results depend on the processing

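The interaction called 0 genes over both sexes, in females, in males and between sexes. This held in each of the 48 fits that leave out 1 library, and in each alternative that left more than 1 library per group. The alternative without the libraries apart in share left only replicate 6 of the Sal CTRL males and is not counted. At an unadjusted p under 0.05 the both-sexes count ran from 812 to 1598 over the counted alternatives and from 743 to 1388 over the 48 fits. The lowest limma adjusted p for both sexes over those alternatives was 0.582, with array weights. The 20 named genes kept their sign in all 259 values under 13 alternatives and in the 48 fits, without a call. The regional difference called 0 also with the animal label as a block (1329 at an unadjusted p under 0.05).

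PLX in MIA offspring (61 calls as designed) gave 112 with a filter of at least 50, 142 with edgeR, 796 with DESeq2, 7193 with array weights and 34 with the replicate block. It gave 20 with a term for the libraries apart in share and 32 with the share as a covariate. Counts without those libraries are not given, since the Sal CTRL males were then replicate 6 alone. Splitting on the first component instead, chosen after seeing the data, gave 21 with the term and 5 without the libraries apart on it. Leaving out 1 library gave 16 (MIA CTRL M replicate 6 or MIA PLX F replicate 5) to 2406 (MIA PLX F replicate 6); 13 libraries lowered the count by over 1.5 times and 12 raised it so. PLX in saline offspring (4829) gave 8931 with array weights, 11 with the share term and 10 with the covariate. On the first component it gave 13 with the term and 7 without the libraries apart on it. Leaving out 1 library gave 2134 to 6754, lower by over 1.5 times without Sal CTRL F replicates 4, 5 or 6 or Sal CTRL M replicates 1, 4 or 5. The cause was not tested.

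Interactions of some of the 20 inhibitor-responsive genes changed sign, none with a call. As designed these included Hcar2 at -0.29, C3ar1 at -0.14 and Tmem119 at 0.12, besides values near 0. With array weights the values were Cx3cr1 -0.023, Siglech -0.043, Gpr34 -0.051, Cd52 0.0011, Itgax -0.033, Tlr13 0.047. With the share term the values were Siglech -0.0096, Lyz2 -0.012, C1qa -0.0059. With the covariate the values were Siglech -0.0096, Gpr34 -0.0029, Lyz2 -0.0057, C1qa -0.0051. Without the libraries apart in share the values were P2ry12 0.031, Tmem119 -0.079, Crybb1 -0.33, Hcar2 0.0060, C1qa -0.056, C3ar1 0.068. With the replicate block the values were Fcrls 0.0041, Siglech -0.0011. With the first-component term the values were Siglech -0.011, Gpr34 -0.012, Lyz2 -0.0047, C1qa -0.011. Without the libraries apart on it the values were Cx3cr1 -0.0040, Tmem119 -0.046, Siglech -0.0053, Gpr34 -0.031, Crybb1 -0.14, C1qa -0.082. Leaving out 1 library moved Clec7a between -0.03 and 0.24, Crybb1 between -0.04 and 0.13, Cx3cr1 between -0.02 and 0.04, Fcrls between -0.05 and 0.02, Gpr34 between -0.03 and 0.05, Itgax between -0.08 and 0.15, Lyz2 between -0.0020 and 0.11 and Siglech between -0.03 and 0.06.

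The deviations of same-numbered libraries of different groups had a median correlation of -0.0036 over 69 pairs, of which 20 were over 0.1. For other numbers it was -0.0030 over 363 pairs, of which 105 were over 0.1. No pairing by number was seen, but such medians cannot show whether some of the numbers share a litter. The replicate block left the interaction at 0 calls. Depth limits genes of low signal such as Hcar2 and Mir6955.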
